A study of Mus musculus with 24 samples.

Results

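A set of 10 genes was followed that mark microglia or belong to the complement cascade: C1qa, C1qb, C1qc, C3, C4b, Cx3cr1, Aif1, Csf1r, Tyrobp and Cd68. The genes were chosen by name, through the gene symbols that the array annotation gives to its probe sets. Of the 10 genes, 8 had a probe set of their own, on 13 probe sets. C4b was found on 1 further probe set, which it shares with its near-identical paralog C4a, so that signal is written C4a/C4b and cannot be assigned to either gene. C3 was not named on any probe set in the annotation used here and was not analysed. This gave 14 probe sets of 45037 on the array, where 18193 genes were named.

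The arrays compared whole retinas of BALB/c mice that had breathed 6% oxygen for 6 h with retinas of normoxic control mice collected at the same times. BALB/c is an albino strain, here homozygous for the light-sensitive variant of Rpe65, and the mice were adult, with no exact age in the sources used here. After hypoxia the mice were kept in darkness in room air for 0, 2, 4 or 16 h, and no array sample had been exposed to damaging light. Each array measured RNA pooled from 3 retinas of 3 mice, and each of the 8 groups held 3 such pools, 24 arrays in all. The values were log2 signals made by the authors with RMA, a method that corrects the background, scales the arrays to each other and summarises the probes of a probe set. The arrays were alike in scale, with medians from 5.79 to 5.84. Of the normoxic pools, 0 h pool 2 and 16 h pool 3 stood apart from the others across all genes, with mean distances to the other arrays of 67.4 and 68.0, and the main results at 0 h that rest on the former are also given without it or without both. With 3 pools a group, the number of arrays limits the precision.

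Microglia are the resident macrophages of the retina. They hold fine processes between the plexiform layers, sense damage through surface receptors and take up debris and synapses. In the nervous system they are the main source of C1q, the recognition molecule of the classical complement pathway, which is built from the chains C1qa, C1qb and C1qc. Bound C1q leads to cleavage of C4 and then of C3, the step at which the complement pathways meet. Cx3cr1 is the receptor for the neuronal chemokine fractalkine, Csf1r is the growth factor receptor on which microglia depend, and Tyrobp (DAP12) is the adaptor that passes on signals from Trem2 and related receptors. Aif1 (Iba1) is an actin-binding protein and Cd68 a lysosomal protein, both used to stain microglia and macrophages.

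The C1q genes lie next to each other in the genome, in the order C1qb, C1qc, C1qa, between Gm31536 and Epha8. Their signals moved together from pool to pool, so the bases upstream of the start of C1qb and C1qc are shown here, with those of Cx3cr1, which moved with them least. The letters searched were GAGGAA, the core of the site bound by the myeloid factor PU.1, on both strands (TTCCTC when read on the other strand), and they are in capitals. Each line holds the 250 bases before the RefSeq start, read 5′ to 3′ on the strand of the gene, in the build GRCm38.p6. C1qb lies at chr4:136886201-136886450, C1qc at chr4:136892915-136893164 and Cx3cr1 at chr9:120068297-120068546, all on the minus strand.
C1qb: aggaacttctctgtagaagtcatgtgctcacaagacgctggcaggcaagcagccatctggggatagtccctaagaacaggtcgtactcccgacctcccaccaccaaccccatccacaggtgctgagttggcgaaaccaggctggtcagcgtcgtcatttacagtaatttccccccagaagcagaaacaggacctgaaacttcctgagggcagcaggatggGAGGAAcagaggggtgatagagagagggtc
C1qc: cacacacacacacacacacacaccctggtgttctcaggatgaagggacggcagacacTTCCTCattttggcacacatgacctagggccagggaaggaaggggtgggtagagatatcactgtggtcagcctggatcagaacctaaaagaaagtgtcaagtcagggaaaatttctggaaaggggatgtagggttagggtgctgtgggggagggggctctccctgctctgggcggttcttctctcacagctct
Cx3cr1: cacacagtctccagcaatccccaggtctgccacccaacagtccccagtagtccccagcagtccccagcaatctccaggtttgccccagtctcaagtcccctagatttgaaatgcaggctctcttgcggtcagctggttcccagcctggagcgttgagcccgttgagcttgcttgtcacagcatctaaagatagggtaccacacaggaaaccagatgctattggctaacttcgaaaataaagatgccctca
The motif began 30 bases before the start in C1qb, and in C1qc it lay 193 bases before the start on the other strand. It was present in 4 of the 6 member promoters in the RefSeq table, the other two being those of Aif1 and Cd68, against 23.3% of 32851 promoters of the same length. Cx3cr1 and C3 held no match. The letters ACGTG, the core of the hypoxia response element, matched none of the 6 member promoters on either strand, against 16.6% of all promoters. A match describes these letters only.

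The 3 chains of C1q did not pass the test at any time point after hypoxia. C1qa gave log2 signals of 7.82, 7.53 and 7.54 in the hypoxic pools at 0 h and of 7.54, 8.40 and 7.32 in the normoxic pools. Normoxic pool 2 was high and the groups overlapped. The change of C1qa was -0.12 at 0 h (SE 0.36, 95% interval -0.86 to 0.62, adjusted p = 0.83), -0.00 at 2 h, -0.21 at 4 h and -0.12 at 16 h. C1qb changed by -0.06, 0.16, -0.18 and -0.06 at 0, 2, 4 and 16 h on its brightest probe set. Its probe set 1417063_at gave -0.03, 0.01, -0.29 and -0.13. C1qc changed by -0.09, 0.11, -0.23 and 0.08, and its mean signal reached the threshold for testing only at 2 and 4 h. The intervals were wide: for C1qa at 0 h they run from 0.55-fold to 1.53-fold, and a p that misses the threshold does not show that the groups were equal.

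**Figure D1:**
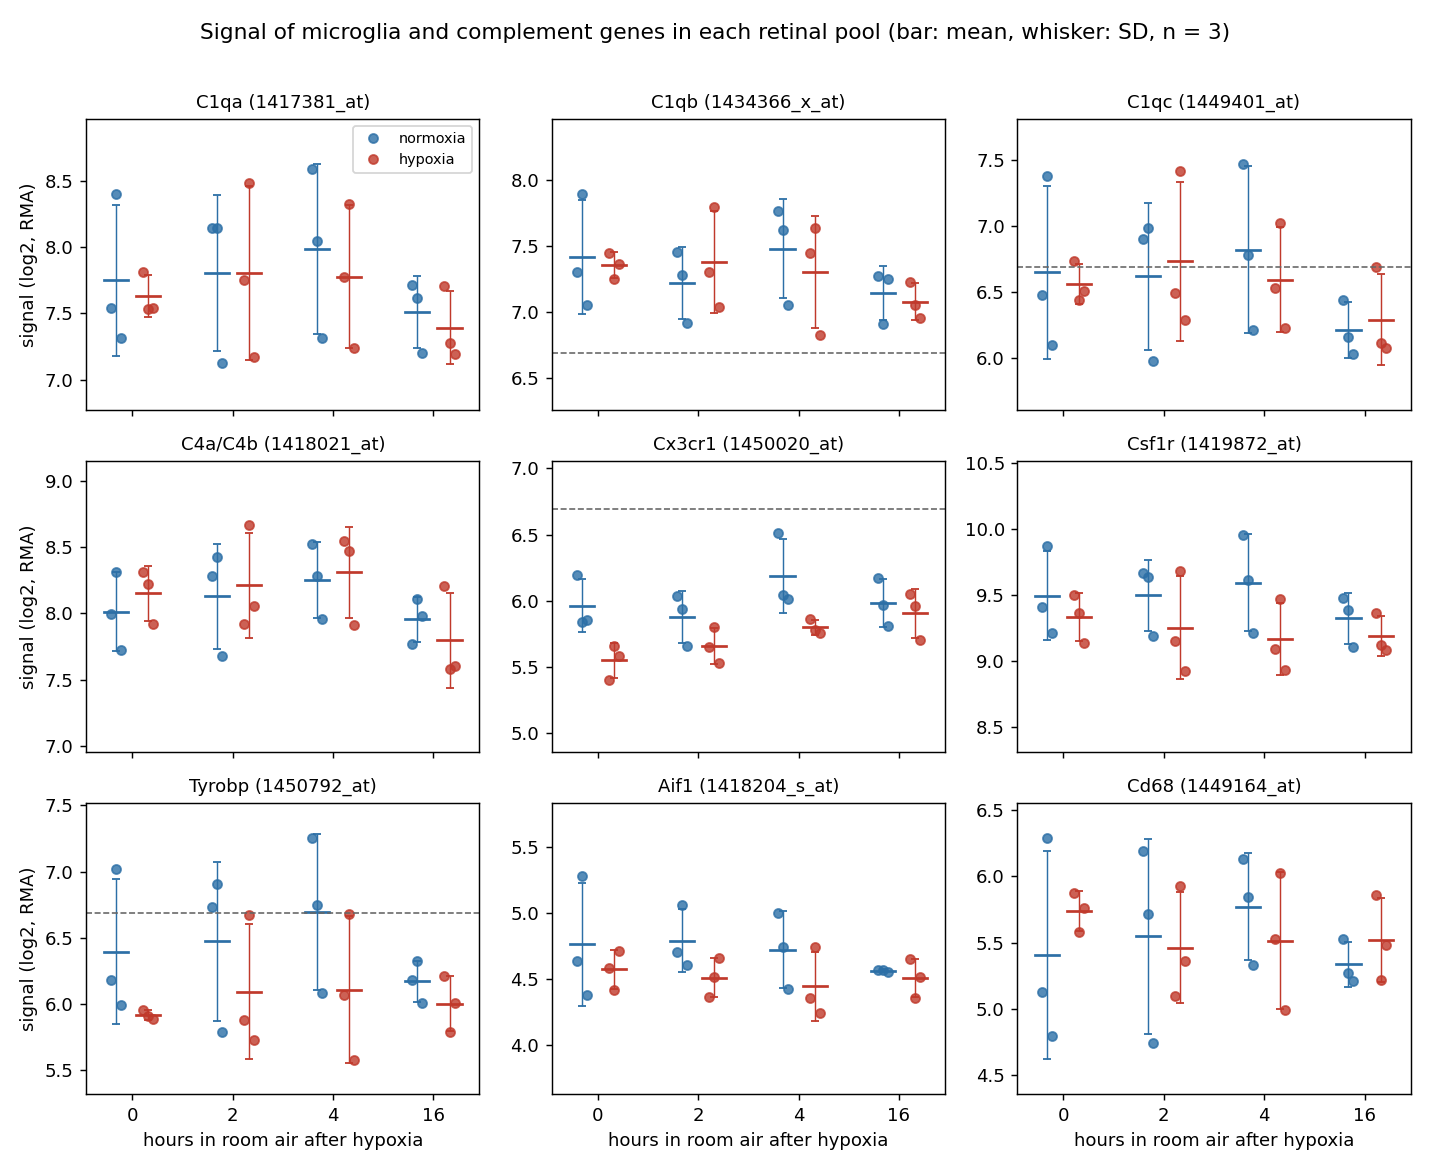
Log2 signal (y axis) of 9 genes in every pool, by hours in room air after hypoxia (x axis); points are pools, bars means and whiskers SD of 3 pools, normoxia in blue and hypoxia in red, and the dashed line is the signal threshold of 6.69. Pools of the same group spread widely for the C1q chains, Tyrobp and Cd68, and the 3 hypoxic pools lie below the 3 normoxic pools for Cx3cr1 and Tyrobp at 0 h.

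Further down the cascade, the C4a/C4b probe set was also without a called change. Its hypoxic pools gave 8.31, 8.22 and 7.92 at 0 h and its normoxic pools from 7.73 to 8.32. The changes were 0.14 at 0 h (adjusted p = 0.69), 0.08 at 2 h, 0.06 at 4 h and -0.16 at 16 h (adjusted p = 0.95), and the pools overlapped at each time. The threshold for testing a probe set was a mean log2 signal of at least 6.69 in either group of the time point.

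Of the receptors, Csf1r came nearest to a call among the tested members, at 4 h. Its brightest probe set gave 9.10, 9.47 and 8.94 in the hypoxic pools at 4 h and 9.95, 9.61 and 9.22 in the normoxic pools. Normoxic pool 1 was the highest of all 24 arrays, and the groups overlapped. The change was -0.43 at 4 h (SE 0.21, 95% interval -0.85 to 0.00, adjusted p = 0.33), -0.16 at 0 h, -0.24 at 2 h and -0.13 at 16 h. The probe sets 1419873_s_at and 1423593_a_at were also lower at 4 h, by -0.37 and -0.24, with adjusted p of 0.39 and 0.37. At 16 h the 3 hypoxic pools of 1419873_s_at (7.20, 6.88 and 7.18) lay below the normoxic pools (7.32, 7.47 and 7.36), with a change of -0.30 and an adjusted p of 0.84.

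Tyrobp was lower on average after hypoxia at each time point. At 0 h its hypoxic pools gave 5.96, 5.91 and 5.88 and its normoxic pools 6.18, 7.02 and 5.99. Every hypoxic pool was below every normoxic pool, although 1 normoxic pool stood far above the other two. The change was -0.48 at 0 h (95% interval -1.15 to 0.19), -0.38 at 2 h, -0.59 at 4 h and -0.17 at 16 h. Single arrays weighed on these values: the change at 0 h was -0.17 without normoxic 0 h pool 2, alone or with the other array that stood apart, and the change at 4 h was -0.31 without normoxic 4 h pool 1. Tyrobp reached the threshold for testing only at 4 h, where its adjusted p was 0.40.

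Cx3cr1 was the member with the clearest difference, and it lay below the signal threshold on all 24 arrays. On its brighter probe set, 1450020_at, the hypoxic pools gave 5.40, 5.66 and 5.59 at 0 h and the normoxic pools 6.19, 5.84 and 5.85. On 1450019_at they gave 4.35, 4.24 and 4.18 against 4.85, 5.09 and 4.55. All hypoxic pools were below all normoxic pools on both. The changes at 0 h were -0.41 (SE 0.14, 95% interval -0.70 to -0.12) and -0.57 (SE 0.17, 95% interval -0.93 to -0.22). No adjusted p belongs to them under the signal filter, and without the filter they were 0.0481 and 0.0233 over all 45037 probe sets, of which 15.2% passed. The call depended on single arrays: with each of the 24 arrays left out in turn, 1450020_at passed in 10 cases (adjusted p 0.0271 to 0.213) and 1450019_at in 20 cases (adjusted p 0.00915 to 0.129). Without the pair of normoxic pools that stood apart, the adjusted p was 0.0447 for 1450020_at and 0.0639 for 1450019_at.

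Whether the Cx3cr1 probe sets differed from each other at later times was not tested. At 2 h the changes were -0.22 on 1450020_at and -0.13 on 1450019_at, and the pools overlapped on each. At 4 h 1450020_at gave 5.86, 5.78 and 5.76 after hypoxia and 6.51, 6.04 and 6.01 in normoxia, again with no overlap and a change of -0.39 (adjusted p = 0.29 without the signal filter). Without normoxic 4 h pool 1 it was -0.23 (adjusted p = 0.74). The change of 1450019_at at 4 h was -0.10. At 16 h the changes were -0.08 and 0.18. The effect of hypoxia on 1450019_at at 0 h minus its effect at 16 h was -0.76, with an adjusted p of 0.0540 in limma without the signal filter, and the same difference for 1450020_at was -0.34 (adjusted p = 0.37).

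Aif1 and Cd68 were likewise below the threshold on every array. Aif1 gave 4.59, 4.42 and 4.71 after hypoxia at 0 h and 4.63, 5.27 and 4.38 in normoxia, and its changes were -0.19, -0.28, -0.28 and -0.05 at 0, 2, 4 and 16 h. Cd68 gave 5.88, 5.58 and 5.76 against 5.13, 6.29 and 4.79 at 0 h. Its normoxic pools spread over both sides of the hypoxic ones, and its changes were 0.34, -0.09, -0.26 and 0.18.

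**Figure D2:**
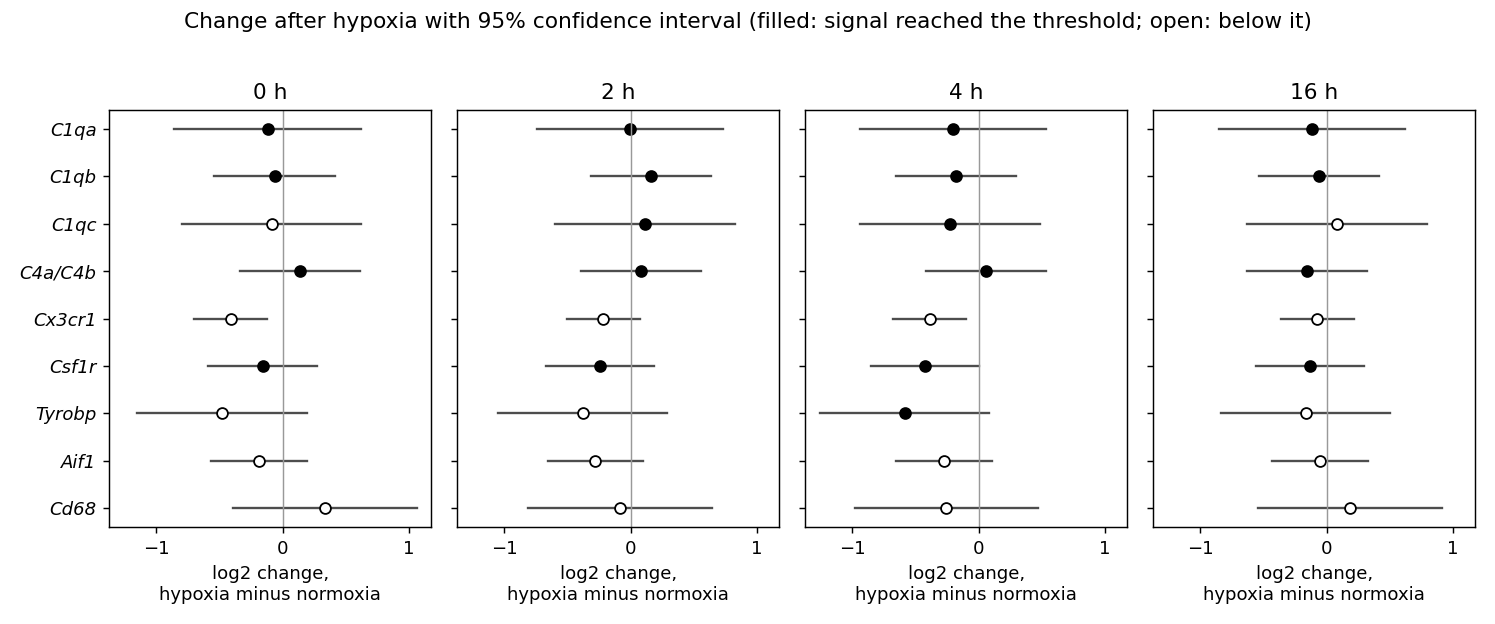
Log2 change, hypoxia minus normoxia (x axis), of each gene (y axis) at 0, 2, 4 and 16 h; points are estimates from all 24 arrays, lines are 95% confidence intervals, filled points reached the signal threshold and open points did not. Intervals that exclude 0 are seen only for Cx3cr1, at 0 and 4 h, and the interval of Csf1r at 4 h ends at 0.00.

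Against this, hypoxia moved a large share of the retinal transcripts. At 0 h 0 of 7 tested member probe sets were called at an adjusted p under 0.05, while 32.4% of all tested probe sets were called, 15.2% higher and 17.2% lower. At 2 h 0 of 8 were called, against 16.6% of all tested, 9.19% higher and 7.38% lower. At 4 h 0 of 9 were called, against 1.43%, and at 16 h 0 of 7, against 0%. At an unadjusted p under 0.05, 0 of the tested members passed at any time. The smallest adjusted p among the members was 0.59, 0.43, 0.33 and 0.84 at 0, 2, 4 and 16 h. The members' changes were more often negative than positive, in 11, 8, 13 and 11 of the 14 probe sets, with medians of -0.08, -0.04, -0.27 and -0.10. Over all features tested the medians were -0.01, 0.01, 0.02 and 0.02, with negative changes in 51.1%, 48.1%, 44.3% and 42.4%. Among features below the threshold 50.8%, 49.5%, 53% and 54.6% were negative. Many of the 14 probe sets follow the same pools, so these signs are not independent of each other.

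Counted without any test, 3 of the 14 member probe sets had all hypoxic pools below all normoxic pools at 0 h (both of Cx3cr1, and Tyrobp), and none had them above. Pools of 29% of all probe sets did not overlap at that time. At 2 h 0 of 14 were separated, against 23.2% of all. At 4 h it was 1 of 14 (Cx3cr1), against 17.7%, and at 16 h 1 of 14 (Csf1r), against 9.13%.

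When the effect at 0 h was set against those at 2, 4 and 16 h, 8.21%, 16.9% and 20.6% of all tested probe sets were called and 0 of the tested members, with smallest adjusted p of 0.62, 0.36 and 0.44. The 4 normoxic groups differed over time in 3.54% of tested probe sets and in 0 of the 9 member probe sets tested, which belong to 6 genes. A mean effect over the 4 time points, a contrast added after the values had been seen, was called in 28.2% of tested probe sets and in 0 of the same 9 member probe sets. Tyrobp had the smallest adjusted p in it, 0.0659, with a mean change of -0.40 (SE 0.16, 95% interval -0.74 to -0.07). Csf1r had mean changes of -0.24 and -0.22 on 1419872_at and 1419873_s_at (adjusted p 0.0874 and 0.111), and C1qa had -0.11 (adjusted p 0.67). The mean effect of Cx3cr1 on 1450020_at was -0.27 (95% interval -0.42 to -0.13). Without the signal filter its adjusted p was 0.0106, in a fit where 5983 of all 45037 probe sets were called. This adjusted p was below 0.05 with each of the 24 arrays left out. On 1450019_at the mean effect was -0.15 (adjusted p = 0.26 without the filter), and it was below 0.05 in 0 of the 24 cases.

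Most of these genes varied widely from pool to pool. C1qa ranged from 7.13 to 8.59 over the 24 arrays, 2.77-fold, with its lowest value in normoxic 2 h pool 3 and its highest in normoxic 4 h pool 1. Tyrobp ranged 3.20-fold, Cd68 2.93-fold, C1qc 2.81-fold and Csf1r 2.04-fold. The SD between pools within groups was 0.50 for C1qa, more than in 99.5% of the 19332 probe sets that reached the threshold, whose median was 0.13. For C1qa 84.4% of the variance lay within groups, for C1qc 80.1%, and for Tyrobp 69%, against a median of 39.1% over those probe sets. Cx3cr1 differed from these, with 38.8% on 1450020_at and 50% on 1450019_at. In a bulk sample a pool with fewer microglia and a pool with less RNA per microglial cell cannot be told apart.

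The same pools were high or low for nearly all of the genes. C1qa and C1qc correlated with r = 0.96 over the 24 arrays (Spearman 0.93, and r = 0.95 without the 2 arrays farthest from the median of C1qa). Over the 28 pairs of the 8 microglial genes r ran from 0.21 to 0.96, with a median of 0.75. After the group means were removed the median was 0.86. The pairs with Cx3cr1 were the lowest, with a median of 0.31 over 7 pairs against 0.80 over the other 21. C4a/C4b followed the 8 genes with r from 0.17 to 0.82. These points share their arrays and their pools of RNA, so the correlations are given as a description.

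**Figure D3:**
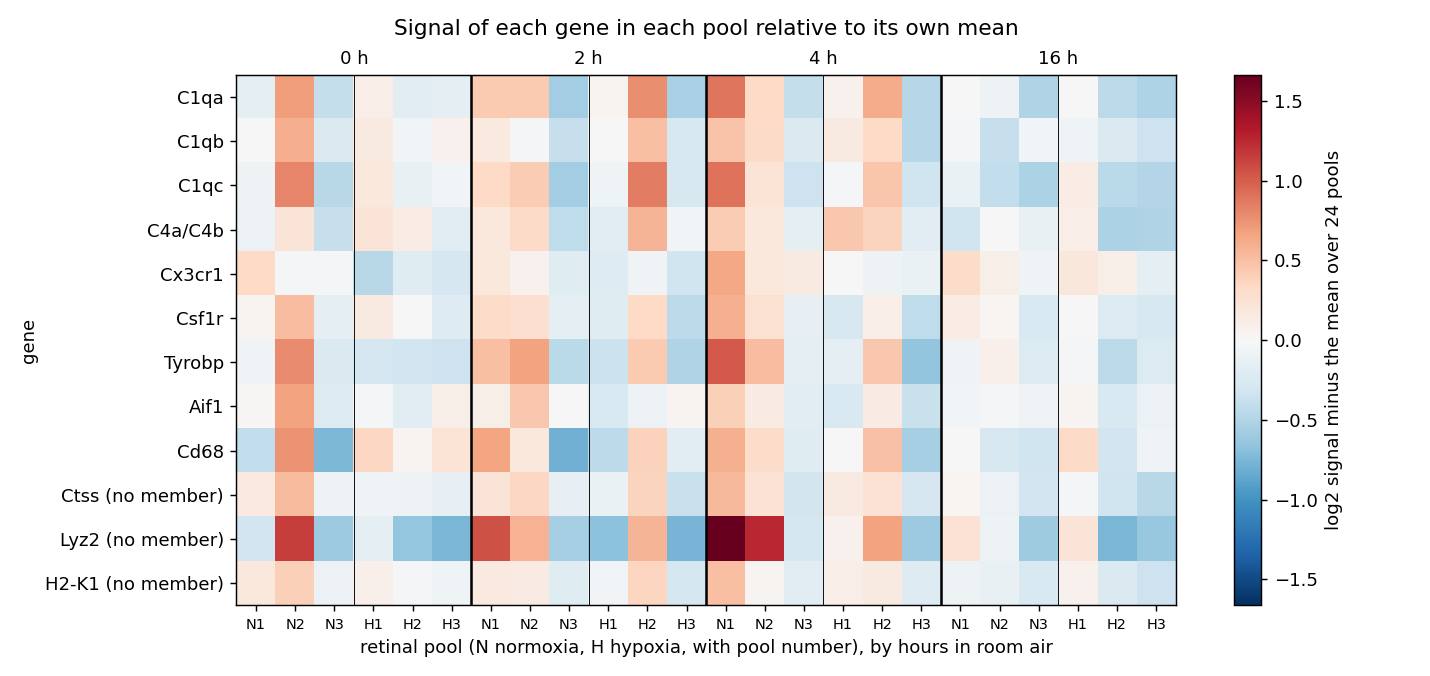
Log2 signal of each gene (rows) in each of the 24 pools (columns, N normoxia and H hypoxia with the pool number) minus its mean over all pools, with red above and blue below the mean. Normoxic 0 h pool 2 and normoxic 4 h pool 1 are red for nearly all genes, and pools of the same group differ in colour.

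Averaged over the 8 microglial genes, normoxic 4 h pool 1 lay 0.69 above the mean of all pools and normoxic 0 h pool 2 lay 0.60 above it. The lowest were hypoxic 4 h pool 3 at -0.42 and normoxic 2 h pool 3 at -0.39. The hypoxic and normoxic group means of this average differed by -0.15, -0.12, -0.32 and -0.04 at 0, 2, 4 and 16 h, while the SD within a group reached 0.47.

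By likeness over the 24 arrays, the genes outside the list that followed the mean of C1qa, C1qb, C1qc, Csf1r and Tyrobp most closely were Ctss (r = 0.94), Lyz1 (0.93), H2-K1 (0.93), H2-D1 (0.92) and Lyz2 (0.91). Ctss is cathepsin S, a lysosomal protease, Lyz1 and Lyz2 encode lysozyme and share much of their sequence, and H2-K1 and H2-D1 are class I histocompatibility genes. Their r after removal of the group means was between 0.94 and 0.97. Lyz1 and Lyz2 varied most, 8.66-fold and 5.41-fold over the arrays. None of the 5 was called at 0 h (Ctss changed by -0.30, adjusted p = 0.29, and Lyz2 by -0.60, adjusted p = 0.40). The genes most like C4a/C4b were Npc2 (0.87), H2-D1 (0.86), the C1 inhibitor gene Serping1 (0.84), Pdlim4 (0.83) and Lgals3bp (0.83).

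Set against the C1q chains of the same array, Tyrobp separated the treatments at 0, 2 and 4 h. This ratio was chosen after the values had been seen, so it is given with no test. The log2 signal of Tyrobp minus the mean of the 3 C1q chains was -1.37, -1.17 and -1.26 in the hypoxic pools at 0 h and -0.93, -0.87 and -0.83 in the normoxic pools. At 2 h it was -1.30, -1.22 and -1.10 against -0.77, -0.56 and -0.88, and at 4 h -1.19, -0.98 and -1.19 against -0.69, -0.73 and -0.78. The hypoxic pools were below the normoxic pools at all of these times, by 0.39, 0.47 and 0.38 on average, with SDs of at most 0.16. At 16 h the pools overlapped and the difference was -0.13. Csf1r was separated in this way only at 2 h (-0.33), and at 4 h its difference was -0.22 with overlap. Cd68 minus the C1q mean was higher in the hypoxic pools at 0 h (0.43) and 16 h (0.22), and Cx3cr1, Aif1 and C4a/C4b overlapped at each time. The signal of Cd68 itself overlapped at 0 and 16 h and lay below the threshold on every array. A ratio does not show which of its genes moved, and unequal change was not tested. How often other genes separate in this way was not computed. The signal of Tyrobp reached the threshold for testing only at 4 h.

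**Figure D4:**
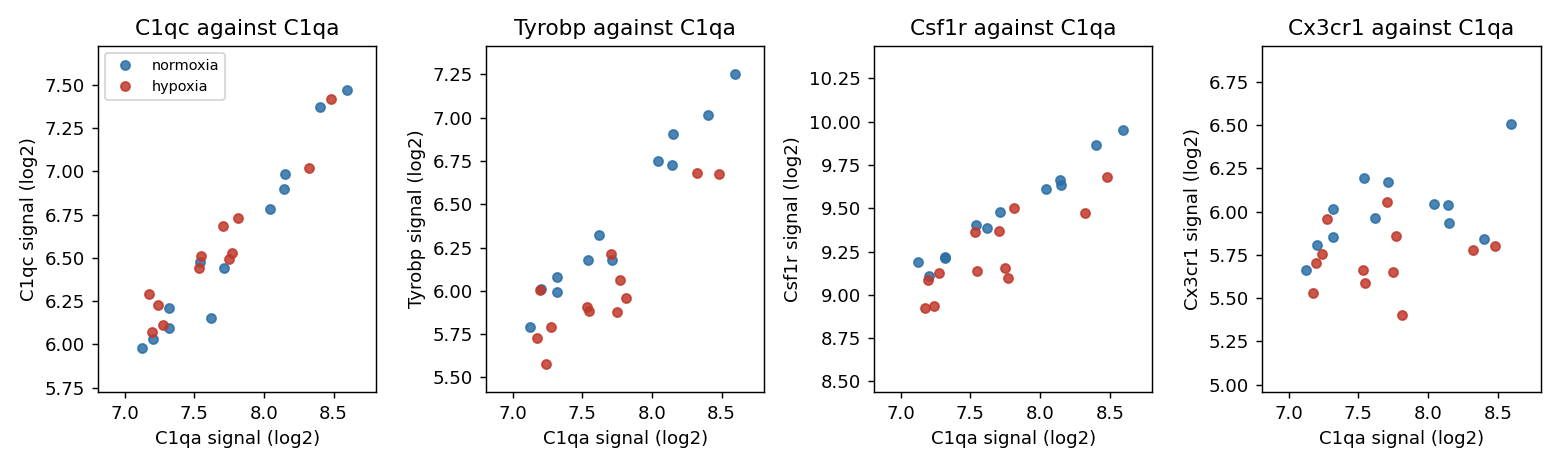
Log2 signal of C1qc, Tyrobp, Csf1r and Cx3cr1 (y axes) against that of C1qa (x axes) in the 24 pools, normoxia in blue and hypoxia in red. C1qc follows C1qa along one line in both treatments (r = 0.96), many hypoxic pools lie below normoxic ones of like C1qa signal for Tyrobp, with overlap at 16 h, and Cx3cr1 follows C1qa least (r = 0.38).

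Other genes of microglia were taken from a list of 35, of which 33 were on the array and 11 were tested at 0 h. Mertk, a receptor for the uptake of dying cells that other retinal cells also express, rose by 0.62 (SE 0.14, adjusted p = 0.00191). Olfml3 rose by 0.67 (adjusted p = 0.0181), but this call was lost without normoxic 0 h pool 2, with a change of 0.39 and an adjusted p of 0.15, and also without either of hypoxic pools 1 and 2. None of the 10 or 11 genes of the list tested at 2, 4 or 16 h was called, which does not show that they were unchanged. The median change of its tested genes was -0.09, -0.17, -0.25 and -0.17 at the 4 times. The mean level of the list over the arrays had r = 0.93 with the microglial mean.

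Below the threshold, 4 further surface genes of microglia were called lower at 0 h beside Cx3cr1, and other surface genes of the list were not. Without the signal filter 4 of the 33 genes were lower at 0 h at an adjusted p under 0.05. These were P2ry12, P2ry13, Gpr34 and Tmem119. In the same fit 2 of the 33 were higher, Mertk and Olfml3, against 7.96% of all probe sets lower and 7.25% higher. Changes were negative in 23 of the 33 genes, with a median of -0.13. Siglech and Slc2a5, other surface genes below the threshold, changed by 0.09 and 0.23 at 0 h (adjusted p = 0.72 and 0.37). The share of the list that was lower was not far above that of all probe sets, which include those above the threshold. All 4 lower genes lay below it, and the share among all probe sets below it was not computed. The analysis without the filter was added for this list after its values had been seen. P2ry12, the ADP receptor that guides microglial processes to injured sites, gave 5.83, 5.45 and 5.66 in the hypoxic pools and 6.16, 6.36 and 6.19 in the normoxic pools. All hypoxic pools were lower, and the change was -0.59 (SE 0.14, adjusted p = 0.00488). P2ry13, a related nucleotide receptor, changed by -0.52 (adjusted p = 0.0100), and its pools were 4.55, 4.52 and 4.62 against 5.19, 5.02 and 5.06. Tmem119, a surface protein used as a microglial marker, changed by -0.43 (adjusted p = 0.0213).

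The calls of P2ry12 and P2ry13 at 0 h held with each of the 24 arrays left out (adjusted p up to 0.0362 and 0.0431), and that of Tmem119 held in 22 cases. Gpr34, a receptor for lysophosphatidylserine, changed by -0.55 (adjusted p = 0.0256), but without normoxic 0 h pool 2 the change was -0.34 and the adjusted p 0.19 (0.14 without both arrays that stood apart). At 2 h P2ry12 was lower by -0.61 (adjusted p = 0.0108) and Selplg by -0.48 (adjusted p = 0.0491), against 2.67% of all probe sets lower and 3.31% higher. The call of P2ry12 at 2 h held in 22 and that of Selplg in only 5 of 24 such cases. At 4 h P2ry12 had a change of -0.59 with no overlap between the pools but an adjusted p of 0.0609, and at 16 h its change was 0.00. Gpr34, with means of 3.69 and 4.24 at 0 h, lay near the lower peak of all signals at 3.80. Signals that low lie close to the background, where the array compresses differences between samples. P2ry12, with means of 5.65 and 6.24 at 0 h, lay between that peak and the threshold of 6.69.

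**Figure D5:**
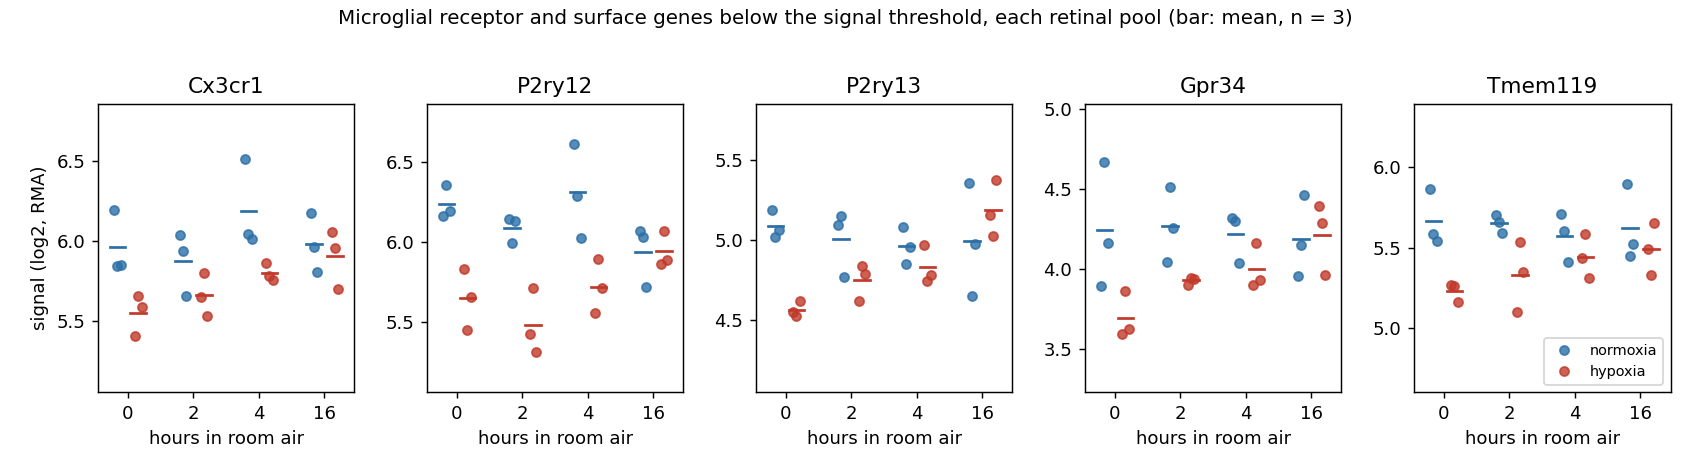
Log2 signal (y axis, a separate range for each gene) of Cx3cr1 and 4 other microglial surface genes in every pool by hours in room air (x axis). Points are pools and bars are means of 3 pools. The 4 genes are those of the list called lower at 0 h without the signal filter. The hypoxic pools (red) lie below the normoxic pools (blue) for all 5 genes at 0 h, at 4 h they do so for Cx3cr1 and P2ry12, and at 16 h the pools of all 5 overlap.

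Over the 24 arrays Cx3cr1 correlated with P2ry12 at r = 0.70, with Tmem119 at 0.67, with P2ry13 at 0.61 and with Gpr34 at 0.43. With the mean of the C1q chains, Csf1r and Tyrobp it correlated at 0.43. P2ry12, P2ry13, Gpr34 and Tmem119 were named because they were lower at 0 h, as Cx3cr1 was. Their r with Cx3cr1 over all arrays follows in part from that choice. After the group means were removed the r of Cx3cr1 was 0.35 with P2ry12, 0.46 with Tmem119, 0.41 with P2ry13, -0.12 with Gpr34 and 0.51 with the mean.

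Among the ligands and signalling partners of these genes, 6 of 14 were tested. Cd200, a neuronal membrane protein whose receptor restrains microglia, fell by 0.37 on the log2 scale at 0 h (adjusted p = 0.00591) and by 0.38 at 2 h (adjusted p = 0.0114). Both calls held with each array left out. Sirpa, which binds the signal CD47, fell by 0.28 at 0 h (adjusted p = 0.0489), and Csf2ra fell by 0.41 at 2 h (adjusted p = 0.0459). These calls were weak, and held in only 4 and 9 of the 24 cases with an array left out. Cx3cl1, the ligand of Cx3cr1, changed by -0.23 at 0 h (adjusted p = 0.0789), and Csf1, a ligand of Csf1r, by 0.17 (adjusted p = 0.42). None of the 6 was called at 4 or 16 h.

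Of 12 tested genes linked to activation, phagocytosis and cytokines, 5 were called higher and 0 lower at 0 h, with a median change of 0.09. Of all tested probe sets 15.2% were called higher and 17.2% lower. Gpnmb, a membrane glycoprotein of phagocytes and pigment cells, rose by 1.03 (adjusted p = 0.00161). H2-Ab1, a class II histocompatibility chain, gave 8.04 ± 0.24 after hypoxia and 7.15 ± 0.23 in normoxia (SD, n = 3) and rose by 0.90 (adjusted p = 4.51e-06). Lgals3 rose by 0.87, Ctsl by 0.41 and Lpl by 0.37, and both of the calls of Lgals3 and Ctsl were lost without normoxic 0 h pool 2 (adjusted p 0.0580 and 0.106) and without hypoxic 0 h pool 1, that of Ctsl also without hypoxic pool 2. H2-Ab1 and Gpnmb were also higher at 2 h, by 0.78 (adjusted p = 0.000158) and 0.82 (adjusted p = 0.0181). The call at 2 h held with each array left out for H2-Ab1, and in 20 of 24 such cases for Gpnmb. None of the list was called at 4 or 16 h.

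In the rest of the complement pathway 34 of 42 listed genes were on the array and 7 reached the threshold. C1qbp, named for binding C1q but chiefly a mitochondrial protein, rose by 0.28 at 0 h (adjusted p = 0.0152) and by 0.29 at 2 h (adjusted p = 0.0238). Vtn, the terminal complex inhibitor vitronectin, fell by 0.32 at 0 h (adjusted p = 0.000848) and by 0.25 at 2 h (adjusted p = 0.0139). Cd59a, which blocks the membrane attack complex, fell by 0.38 at 2 h (adjusted p = 0.0238). The calls of Vtn held with each array left out, those of C1qbp in 22 and 21 of 24 cases and that of Cd59a in 21. No gene of this list was called at 4 or 16 h.

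Markers of other blood and tissue cells were checked beside these genes. Of 7 markers of perivascular and tissue macrophages only Lyve1, which lymphatic endothelium also expresses, was above the threshold. It fell by 1.34 at 0 h (SE 0.13, adjusted p = 1.29e-07) and changed by -0.11 at 2 h. Mrc1 and Cd163 had means between 3.53 and 3.61 at 0 h in both treatments, close to the lower peak of all signals at 3.80. None of the 7 neutrophil, 8 T and B cell or 3 erythroid markers on the array reached the threshold, and 1 of 4 monocyte markers did (Plac8, a change of -0.08 at 2 h).

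Markers of the retinal pigment epithelium moved with hypoxia at 0 h: 6 of 7 tested rose, with a median change of 2.75, among them Ttr by 3.75, Rgr by 3.57, Rpe65 by 3.48 and Dct by 2.75. The mean level of the pigment epithelium list lay between -1.05 and 1.31 on hypoxic arrays and between -1.28 and 0.57 on normoxic arrays, relative to its mean. It had r = 0.08 with the microglial mean, and 0.41 after the group means were removed. The part of the pigment epithelium in the changes of Gpnmb, Mertk and the other genes above was not tested. The 13 lens markers had a median change of 1.60 at 0 h with 0 called, and the mean of that list ranged from -4.03 to 0.96 on normoxic arrays.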

How the data were processed

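Retinal RNA was hybridised to Affymetrix whole-genome mouse arrays, and the authors deposited log2 signals made with RMA, whose version is not given in the sources used here. The members and all gene lists were chosen with earlier results of these data known. Groups came from the sample labels. The 64 control probe sets were left out of 45101. A probe set was assigned a gene where the array annotation named 1 gene (34945 probe sets, with several genes on 932 and none on 9160), and the brightest probe set of a gene stands for it where 1 is given. In limma 3.58.1 (R 4.3.3), all 24 arrays entered a single linear model holding the means of the 8 groups (lmFit, contrasts.fit and eBayes, 16 residual degrees of freedom). Benjamini-Hochberg adjustment covered all probe sets whose mean log2 signal reached 6.69 in either group compared, which is the trough separating low from high signals in their density, with peaks at 3.80 and 7.90. Changes are hypoxia minus normoxia on the log2 scale. All members are named. In the other lists the rule named up to 4 called genes with the largest change at a time point, or up to 2 of the brightest where none was called. Lpl, Cx3cl1, Csf1, Mrc1, Cd163 and the genes named from the fit without the filter fall outside it and were chosen after their values were seen. Pools are separate mice, and no pair of arrays was a copy (highest correlation 0.997). The fit was tested on simulated data. Alternatives were the signal filter, array weights, a replicate block, other thresholds and leaving out arrays. Promoter sequences are those of RefSeq.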

Additional observations from a re-analysis of the deposited data

How the results depend on the processing

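The log2 changes of the 9 genes at the 4 time points gave 36 values and 1396 recomputed values. Of these, 671 had no adjusted p, because the signal fell below the filter or because the alternative used an unadjusted p. Values below the filter say nothing about stability. Among the other 725, 724 kept their side of the threshold. The exception was Cx3cr1 at 0 h, which passed without the signal filter (-0.41, adjusted p = 0.0481). The counts of called member probe sets at each time point, for the differences between times and over the normoxic groups remained at 0 in 279 of 280 alternatives, and at 0 h the count was 2 without the signal filter. Leaving out each array gave 0 to 0 at every time point. The mean effect over the 4 time points moved more: 1 member probe set was called without the signal filter, 3 with array quality weights, 2 at an adjusted p under 0.1, and from 0 to 2 with each array left out. The cause was not tested.

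By the correlations of their deviations, equal replicate numbers did not pair the pools: these ran from -0.23 to 0.24 and only 2 of 12 exceeded 0.1. The average over the microglial genes did shift with the replicate number. Pool 3 lay below the mean of all pools in every group, by -0.08 (hypoxic 0 h) to -0.42 (hypoxic 4 h). It was the lowest pool in every group except hypoxic 0 h and hypoxic 16 h. The cause of this shift was not tested. With the replicate number as a block 0 member probe sets were called at each time point, and 2 for the mean effect. With 3 pools a group and an SD within groups of 0.50 for C1qa, the 95% interval at 0 h ran from -0.86 to 0.62. Aif1, Cd68 and Cx3cr1 stayed below the signal threshold on all arrays.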

Other observations

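Lists of other retinal cells were set beside the microglial mean, as a description over the 24 arrays. The mean of 8 Müller glia and astrocyte markers had r = 0.66 with it (0.68 after the group means were removed), and the mean of 8 rod photoreceptor markers had r = -0.14 (-0.52 after removal). The 6 tested endothelial and pericyte markers had r = 0.38. The other complement genes had r = 0.76 with it, and the activation list 0.60, rising to 0.84 after the group means were removed.

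Kdr, the main receptor for vascular endothelial growth factor, fell by 0.71 at 0 h (adjusted p = 0.000224), by 0.99 at 2 h (adjusted p = 4.53e-05) and by 0.54 at 4 h (adjusted p = 0.0378). The call at 4 h held in 19 of the 24 cases with an array left out. Kdr was the only called gene of the 6 tested endothelial and pericyte markers, whose median changes were -0.09, 0.06 and 0.04 at these times. Vim, an intermediate filament of Müller glia, rose by 0.56 at 0 h (adjusted p = 0.0473), and this held in 12 of the 24 cases but not without both arrays that stood apart (0.35, adjusted p = 0.22). No other of the 8 tested Müller glia and astrocyte markers was called, and their median change at 0 h was 0.03. Pdgfra, a receptor of fibroblasts and 1 of 2 tested fibroblast markers, rose by 0.63 at 0 h (adjusted p = 0.0262), which was lost without normoxic 0 h pool 2 or hypoxic 0 h pool 2. Pde6a, a rod phosphodiesterase subunit, fell by 0.43 at 2 h (adjusted p = 0.00733). It was the only called gene of the 8 tested rod markers, whose median change at 2 h was -0.14.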
